A study of Mus musculus with 12 samples.

Results

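Natural killer T (NKT) cells of the mouse were compared by developmental origin in 2 tissues, and the genes were sorted by whether the change with origin was the same in thymus and liver, opposite, or present in 1 tissue. All 12 libraries of the study entered, 3 for each of 4 groups. Genes were kept where the mean level was at least 1 FPKM (fragments per kilobase of transcript, scaled to the mapped fragments of the library) in the thymus table and also in the liver table. This left 8372 of 23284 genes. Just inside that level was Mapk8ip3, with means of 1.19 FPKM in the thymus and 1.0003 in the liver, and just outside was Tpd52, with 0.9995 and 1.47.

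The cells were sorted as live CD45R-, CD4- and CD8- cells from C57BL/6 mice, by binding of a CD1d dimer and staining for TCRb, the T cell receptor beta chain. In the cKO groups the mice carried floxed Rag2 and a Cre driven by E8III, a Cd8 gene enhancer that is active at the CD4+CD8+ double-positive (DP) stage, and their NKT cells are taken as of double-negative (DN) origin. In the YFP+ groups the mice carried the same Cre and a loxP-STOP-loxP reporter at Rosa26, and their NKT cells are taken as of DP origin. Thymocytes were first depleted of CD4+, CD8+ and DP cells on magnetic columns, and libraries were made from 10 ng of total RNA with a low-input amplification kit. Both groups share the Cre, but only the cKO mice lose Rag2, so the origin of the cells cannot be told apart from the kind of mouse. Ages are not given in the sources used here. Nothing in the labels says that replicates were separate mice or separate sorts, so p-values cover the spread among these libraries alone, which may be technical.

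NKT cells recognise lipids presented by CD1d. Most arise from DP thymocytes, where Rag1 and Rag2 complete the T cell receptor alpha chain, and a route through the DN stage has been described as well. Their effector subsets are named for the cytokines they make: NKT1 cells depend on T-bet and make interferon gamma, NKT2 cells have the most PLZF and make IL-4, and NKT17 cells make IL-17. Mature cells acquire NK receptors and leave the thymus with the help of the lipid receptor S1P1.

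In the libraries 11 of 11 fixed NKT cell genes (such as Zbtb16, Tbx21, Il2rb and Cd3e) were above 0, and they summed to 1292 to 1798 FPKM (thymus) and 3667 to 4326 FPKM (liver). Among thymus libraries Rag2 was above 0 in 1 of 6, cKO replicate 2, at 0.015 FPKM. Liver cKO libraries had 0 in all 3, and liver YFP+ libraries had 1.37, 0.985 and 1.08 FPKM. Rag2 was below the level for testing. The title and the column header of each liver library name 1 mouse and the description field names the other. Groups follow the titles here, and with the descriptions every liver direction below would be mirrored, so that 60 genes would be shared and 197 opposed.

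Other cells and sex-linked genes moved with the groups in the liver. The summed level of 14 DP thymocyte markers was 39.0 to 39.7 FPKM in liver cKO and 100.2 to 114.3 in liver YFP+, with Dntt at 0.385 to 0.768 against 15.7 to 16.4. The 8 B cell markers summed to 5.64 to 8.89 FPKM in liver cKO and 73.2 to 84.4 in YFP+, the 10 myeloid markers to 17.8 to 20.6 and 53.6 to 71.2, and the 7 erythroid markers to 9.83 to 14.96 and 641.1 to 742.3. The 3 gamma-delta T cell markers in the tables went the other way, at 19.6 to 22.8 FPKM in liver cKO and 3.07 to 5.31 in YFP+. Their thymus sums were 11.5 to 13.2 FPKM in cKO and 10.3 to 13.3 in YFP+. In the thymus the DP markers summed to 18.0 to 21.5 FPKM in cKO and 30.6 to 36.7 in YFP+, the B cell markers to at most 3.32 and the myeloid markers to at most 3.83 in any library. Erythroid markers reached 107.6 FPKM in thymus cKO replicate 1 and at most 0.860 in thymus YFP+. The 8 hepatocyte markers included Trf, described below, and Alb stayed at or under 0.294 FPKM in all libraries. Liver endothelium and stroma markers summed to at most 4.36 FPKM and those of thymic epithelium to at most 1.16. The 7 NK cell and type 1 innate lymphoid markers summed to 290.0 to 339.8 FPKM (thymus) and 585.5 to 692.6 FPKM (liver), mostly from Klrb1c, Klre1, Gzma and Klrc2. Eomes was at most 0.047 FPKM in the thymus and Ncr1 at most 0.536. In the liver Ncr1 was at 1.72 to 2.87 FPKM in cKO and 0.179 to 0.502 in YFP+. Y-linked Ddx3y was at 0 in 5 of 6 thymus libraries and at 0.006 FPKM in the other, but at 8.30 to 8.45 in liver cKO and 14.9 to 17.5 in liver YFP+. Xist, from the inactive X chromosome, was found in every library and in the liver was higher in cKO, at 5.07 to 6.16 against 2.70 to 3.30 FPKM. Tissue, table and the sex-linked RNA of the mice therefore cannot be told apart. Within the liver the sex-linked RNA also differed between cKO and YFP+, so the liver changes with origin cannot be told apart from it. The part of these other cells in the liver changes was not tested.

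**Figure D1:**
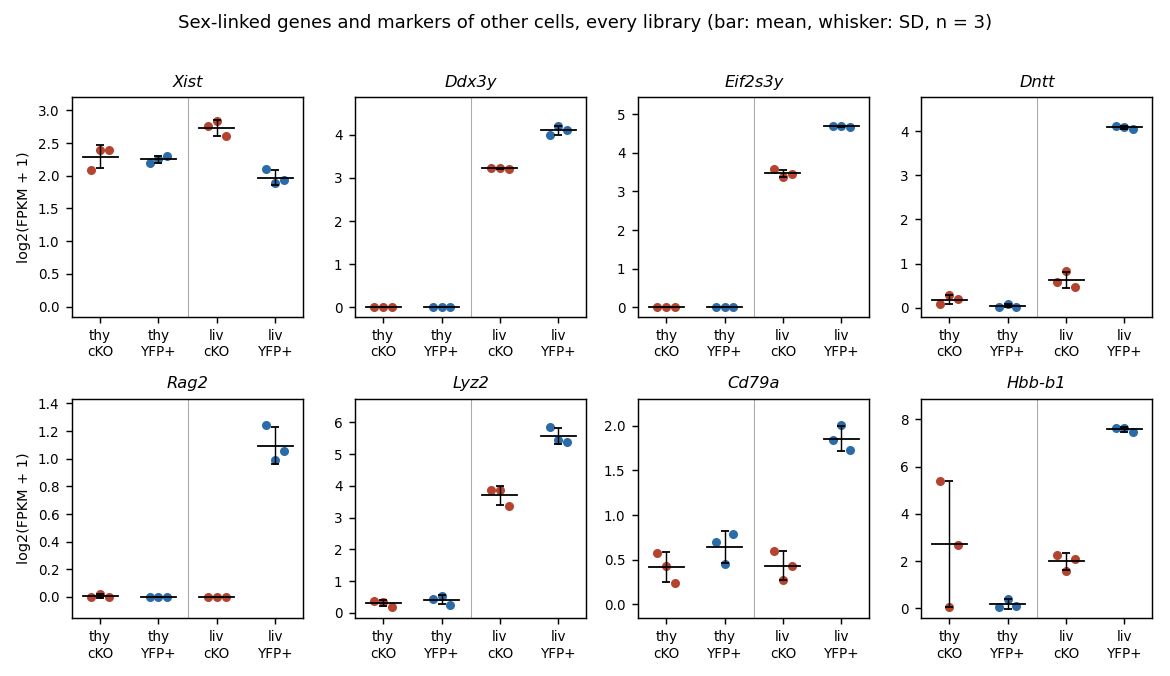
Sex-linked genes and markers of other cells in every library, as log2(FPKM + 1) of the values as deposited (vertical axis) for the 4 groups (horizontal axis, thy for thymus and liv for liver). Points are libraries, bars are means and whiskers SD over 3 libraries. Ddx3y and Eif2s3y lie near 0 in the thymus and are higher in liver YFP+ than in liver cKO, and Dntt, Rag2, Lyz2, Cd79a and Hbb-b1 are highest in liver YFP+.

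With origin, 729 genes changed in the thymus (8.71% of the 8372 tested; 334 or 3.99% higher and 395 or 4.72% lower in cKO) and 1596 in the liver (19.1%; 750 or 8.96% higher and 846 or 10.1% lower). A gene counted as changed at an adjusted p under 0.05 in limma, with changes given as cKO minus YFP+ on log2(FPKM + 1) and median-ratio scaled libraries. The 257 genes that changed in both tissues were 35.3% of the thymus genes and 16.1% of the liver genes. Among them 197 changed the same way (2.35% of all tested), 98 higher (1.17%) and 99 lower (1.18%) in cKO, and are called shared below. Another 60 changed in opposite ways (0.717%), 32 higher in thymus cKO and lower in liver cKO (0.382%) and 28 the reverse (0.334%). The change itself differed between tissues, liver minus thymus in a fit of all 12 libraries, for 1169 genes (14.0%).

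A call in 1 tissue alone is no evidence of a difference, so a gene counted as thymus-only or liver-only when the difference passed too. By this rule 184 genes were thymus-only (2.20%; 88 or 1.05% higher and 96 or 1.15% lower) and 667 liver-only (7.97%; 358 or 4.28% higher and 309 or 3.69% lower). A further 288 thymus calls and 672 liver calls could not be assigned to either. The 3 cKO and 3 YFP+ values did not overlap in either tissue for 194 of the 197 shared and 56 of the 60 opposed genes, which the call makes likely, against 20.0% of all genes. Of the shared genes 42 also differed in size between tissues, 32 of them changing more in the thymus and 10 more in the liver. Both changes reached 1 on the log2 scale in 31 shared genes, 10 higher and 21 lower, and in 4 opposed genes. Across the 8372 genes the thymus and liver changes had a Pearson correlation of 0.139, a description over genes that share libraries.

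These counts depend on single libraries and on the scaling. Without thymus cKO replicate 1 the shared genes numbered 291 and the opposed genes 124, and without thymus YFP+ replicate 3 they numbered 114 and 22. With values as deposited, where the median gene was lower in cKO by 0.17 in the thymus and by 0.11 in the liver on the log2 scale, 59 genes were shared higher and 335 shared lower, and on a TPM scale 93 and 96. The liver had 514 higher and 1649 lower with values as deposited. On the TPM scale 580 liver-only genes were higher and 140 lower, and 54 thymus-only genes higher and 208 lower.

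**Figure D2:**
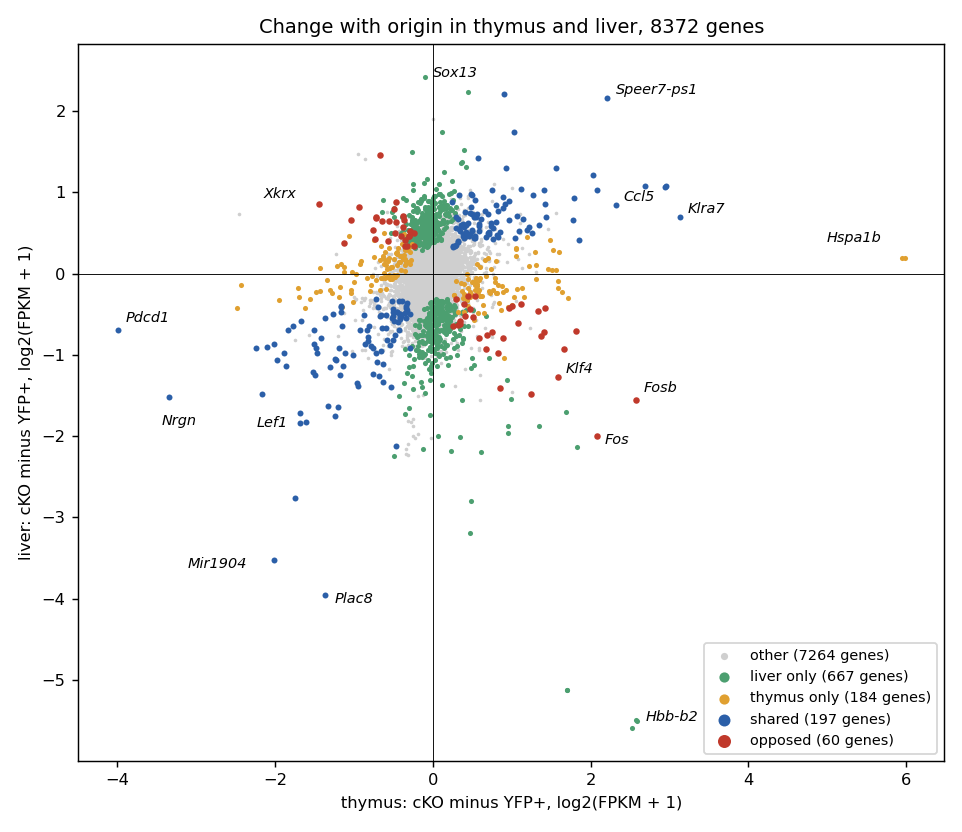
Change with origin in the thymus (horizontal axis) and in the liver (vertical axis), cKO minus YFP+ on log2(FPKM + 1), for each of 8372 genes. Blue points are the 197 shared genes, red the 60 opposed, orange the 184 thymus-only, green the 667 liver-only and grey the rest. Shared genes lie to the upper right and lower left, and the globin genes at the bottom are lower in liver cKO.

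Among genes higher in cKO in both tissues were a cytokine, a member of the TNF ligand family, a chemokine and receptors of NK cells. Il2, the T cell growth factor, was at 2.91, 2.64 and 2.12 FPKM in thymus cKO against 0.935, 0.782 and 0.835 in thymus YFP+. In the liver it was at 5.68, 8.22 and 7.25 against 2.53, 1.26 and 0.976. The groups did not overlap in either tissue, which the rule for naming this gene required (below) and which so adds no support. Il2 rose by 1.02 ± 0.12 (SE, as throughout, with adjusted p = 0.0015) in the thymus and 1.74 ± 0.23 (0.00215) in the liver. Tnfsf8, which encodes the CD30 ligand, was at 9.61, 11.1 and 8.13 FPKM in thymus cKO against 3.51, 2.76 and 2.55, and at 11.9, 10.9 and 10.8 in liver cKO against 4.72, 4.61 and 3.63. Every cKO library exceeded every YFP+ library of its tissue, again as the naming rule required. The changes were 1.55 ± 0.14 (adjusted p = 0.000537) and 1.29 ± 0.13 (0.000628).

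Aqp9, a channel for water and glycerol, was at 29.5, 21.3 and 31.0 FPKM in thymus cKO against 8.06, 7.00 and 4.98, and at 32.7, 39.0 and 32.0 in liver cKO against 13.6, 16.6 and 16.1. It rose more in the thymus (2.02 ± 0.18) than in the liver (1.22 ± 0.11), with an adjusted p of the difference of 0.0368. Ccl5, a chemokine made by effector T and NK cells, was at 914, 1507 and 1057 FPKM against 271, 251 and 237 in the thymus and at 3617, 3513 and 3773 against 2453, 2169 and 1960 in the liver. Its change was likewise larger in the thymus, 2.32 ± 0.18 against 0.84 ± 0.13 (adjusted p of the difference = 0.00206). Gcm2, a transcription factor known from the parathyroid, rose by 1.41 ± 0.13 and 1.03 ± 0.13, from levels of at most 1.79 FPKM in the YFP+ libraries. Xdh, xanthine dehydrogenase, rose by 1.11 ± 0.26 and 1.04 ± 0.13, and its thymus call was lost when 1 of 4 thymus libraries (cKO replicate 3 or any YFP+ replicate) was left out. The pseudogene Speer7-ps1 was listed at 0 in all liver YFP+ libraries and at 3.34, 4.91 and 2.22 FPKM in liver cKO, and its thymus values, whose call was lost without YFP+ replicate 1, were 6.59, 10.1 and 7.87 against 0.868, 0.223 and 3.19. Genes listed at 0 numbered 8800 to 8869 in liver YFP+ libraries and 6702 to 6841 in liver cKO. The part of this gap in such zeros was not tested.

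S1pr1, which encodes the receptor S1P1 for leaving the thymus, was at 13.1, 10.9 and 8.41 FPKM in thymus cKO against 4.28, 4.23 and 4.50, and at 15.5, 18.5 and 15.9 in liver cKO against 12.2, 12.8 and 12.2. It rose in both, by 1.26 ± 0.14 and 0.49 ± 0.10, and the liver call was lost without liver cKO replicate 2. Of 15 egress, homing and adhesion genes tested, 5 were higher and 2 lower in thymus cKO and 7 higher and 2 lower in liver cKO. Beside this and the list counts below, 3.99% of all genes tested were higher and 4.72% lower in thymus cKO. In liver cKO the shares were 8.96% and 10.1%. Of the S100, annexin and galectin genes, calcium-binding and membrane-linked proteins that rise in effector T cells, 15 were tested, and 9 were higher and 1 lower in thymus cKO and 6 higher and 0 lower in liver cKO. Their median change was 0.43 in the thymus and 0.08 in the liver, beside −0.04 and −0.02 for all genes, and the liver median turned to −0.03 with values as deposited. The 5 shared members were S100a4, S100a6, Ahnak, Lgals1 and Anxa6, with S100a4 at 34.1, 43.7 and 45.0 FPKM against 22.3, 24.5 and 21.6 in the thymus and at 165, 163 and 182 against 101, 102 and 92.0 in the liver. Of 14 cytotoxic granule genes tested, 2 were higher and 4 lower in thymus cKO and 3 higher and 2 lower in liver cKO. Gzmb, granzyme B, was the single one shared higher, by 0.47 ± 0.08 and 0.75 ± 0.10. Serpinb6b, an inhibitor of granule proteases, was shared lower. Gzmb lost its class with values as deposited and without thymus YFP+ replicate 1 or 3. Serpinb6b lost its class without thymus YFP+ replicate 2 or 3 or any 1 liver cKO library.

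Genes lower in cKO in both tissues included regulators of transcription in early T cell life. Lef1, a factor of the Wnt pathway needed by thymocytes, was at 6.59, 4.87 and 6.37 FPKM in thymus cKO against 21.5, 23.8 and 25.6 in YFP+, and at 8.21, 8.45 and 13.2 in liver cKO against 38.4, 38.9 and 43.3. It fell by 1.69 ± 0.10 (adjusted p = 9.64e-05) in the thymus and by 1.84 ± 0.16 (0.000374) in the liver. Id3, an inhibitor of E proteins, was at 7.09, 6.31 and 6.47 FPKM against 14.6, 18.2 and 20.1 in the thymus and at 31.1, 33.3 and 30.8 against 72.6, 79.4 and 77.1 in the liver. The 2 changes were alike in size, −1.14 ± 0.10 and −1.13 ± 0.08, with a difference of 0.00 ± 0.13. Ikzf2, which encodes the factor Helios, was at 0.596, 0.409 and 0.514 FPKM against 3.42, 3.62 and 3.48 in the thymus and at 1.04, 1.36 and 1.42 against 4.61, 4.73 and 4.66 in the liver. All 6 cKO values of Lef1, Id3 and Ikzf2 lay below the YFP+ values of the same tissue, a condition for naming Lef1 and Ikzf2.

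Of the 10 early T lineage regulators tested, 6 were lower and 2 higher in thymus cKO and 6 lower and 1 higher in liver cKO. Lef1, Id3, Ikzf2 and Satb1 were shared lower, and Dgka, a diacylglycerol kinase that damps T cell receptor signals, was shared higher. Lef1, Id3 and Ikzf2 kept their class in all 12 fits that left out 1 library, and Satb1 in 4 of 12. Tcf7, the partner of Lef1 in the thymus, was opposed. It was at 84.0, 87.9 and 90.5 FPKM against 64.5, 68.9 and 68.5 in the thymus and at 95.9, 91.8 and 93.2 against 123, 125 and 120 in the liver. Its liver change of −0.28 ± 0.08 (adjusted p = 0.0439) lost its call on the TPM scale, with the length trend removed and without liver cKO replicate 1, 2 or 3 or YFP+ replicate 2. Several of these genes are also expressed by DP thymocytes, whose markers were higher in the YFP+ libraries of both tissues (above), and the part of such cells in the shared decreases was not tested.

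Slamf6, whose signals are needed for NKT cells to form, was at 0.042, 0.021 and 0.011 FPKM in thymus cKO against 1.59, 1.84 and 3.73 in YFP+, and at 0.263, 0.594 and 0.900 in liver cKO against 5.15, 5.56 and 3.78. It fell by 1.61 ± 0.20 and by 1.82 ± 0.19. Sh2d1a, the adaptor SAP that acts below SLAM receptors, fell by 0.68 ± 0.07 and by 1.25 ± 0.13, more in the liver (adjusted p of the difference = 0.0343). Pdcd1, the inhibitory receptor PD-1, was at 0.768, 0.350 and 0.498 FPKM in thymus cKO against 22.3, 20.7 and 34.9, and at 13.9, 13.4 and 13.7 in liver cKO against 26.8, 22.1 and 24.8. It was lower in both tissues, with changes of −3.996 ± 0.18 in the thymus and −0.69 ± 0.11 in the liver, a difference of 3.30 ± 0.23 (adjusted p = 1.62e-05). Of 11 checkpoint and co-stimulation genes tested, 5 were lower and 0 higher in thymus cKO and 4 lower and 1 higher in liver cKO, and Pdcd1, Cd160 and Tnfrsf4 were the shared ones. Tnfrsf4, which encodes OX40, went the other way in size, −0.46 ± 0.10 in the thymus and −2.12 ± 0.17 in the liver, and its thymus call was lost without any 1 of thymus cKO replicates 2 and 3 or YFP+ replicates 1, 2 and 3.

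Nrgn, neurogranin, a calmodulin-binding protein, was at 0.594, 0.449 and 0.144 FPKM in thymus cKO against 12.3, 11.1 and 20.1, and at 0.517, 0.467 and 0.823 in liver cKO against 2.62, 6.16 and 3.21. Trf, transferrin, was at 5.92, 4.16 and 4.33 FPKM against 26.5, 26.02 and 30.3 in the thymus and at 10.6, 11.5 and 14.4 against 36.2, 40.8 and 38.3 in the liver. Both fell more in the thymus, Nrgn by 3.34 ± 0.20 against 1.52 ± 0.23 and Trf by 2.17 ± 0.11 against 1.49 ± 0.12. Tceal3, a gene of the transcription elongation factor A-like family, fell by 1.69 ± 0.11 and by 1.71 ± 0.30. Cd4, whose protein the sort selected against, was at 0.261, 0.641 and 0.386 FPKM against 1.85, 3.43 and 3.35 in the thymus and at 2.51, 1.53 and 1.67 against 8.35, 8.06 and 8.92 in the liver. Plac8 was at 0.597, 0.210 and 0.106 FPKM against 1.37, 2.39 and 4.39 in the thymus and at 2.18, 1.38 and 1.99 against 47.8, 43.5 and 45.7 in the liver, and its thymus call was lost without cKO replicate 2 or 3 or YFP+ replicate 2. The microRNA genes Mir1903 and Mir1904 passed too, with Mir1904 listed at 0 in all liver cKO libraries. They lie within Nrp1 and Pde4d, and reads of those transcripts cannot be told apart from reads of the microRNA genes. Nrp1 itself was lower in both tissues, by 1.31 ± 0.09 and by 1.15 ± 0.21.

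**Figure D3:**
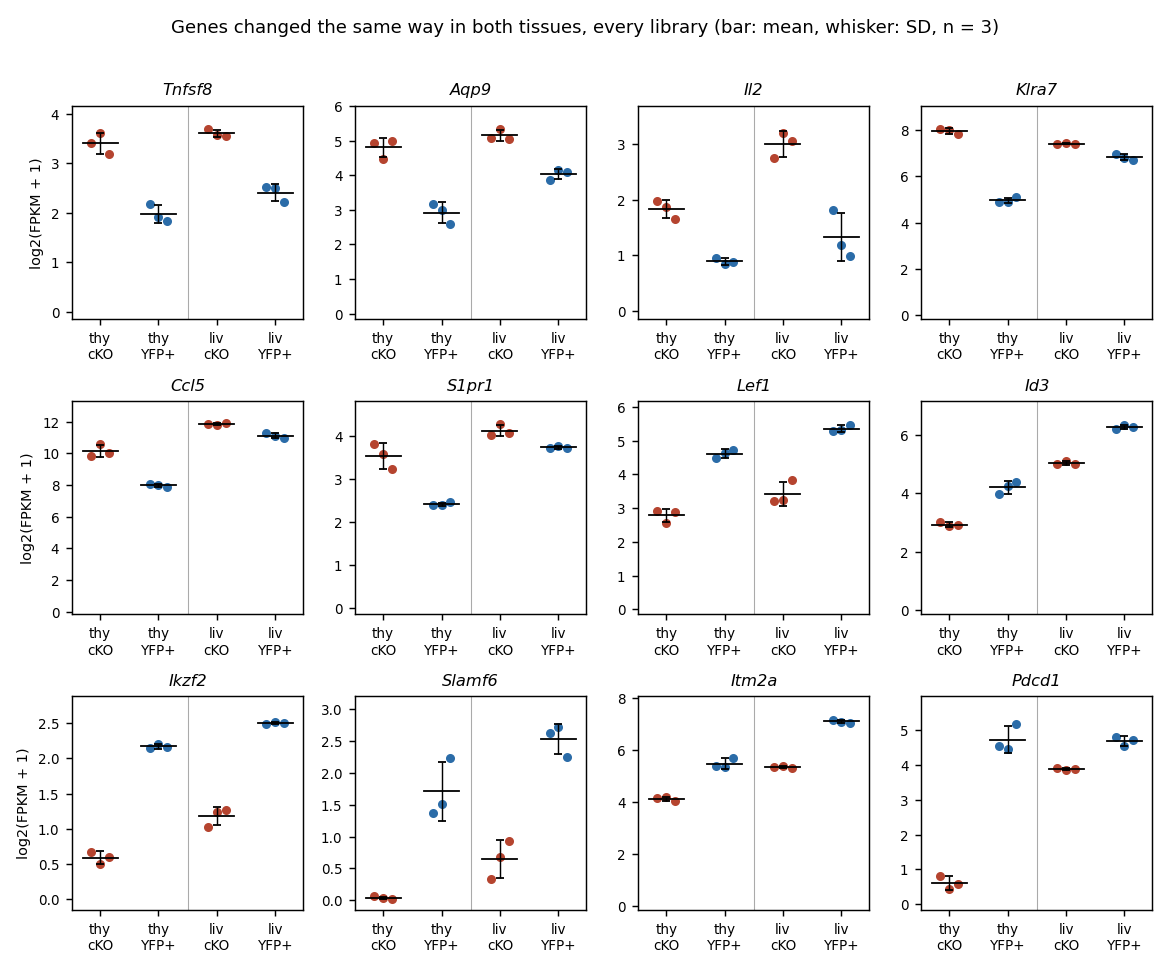
Levels of 12 shared genes in every library, as log2(FPKM + 1) of the values as deposited (vertical axis) for the 4 groups (horizontal axis). Points are libraries, bars are means and whiskers SD over 3 libraries. Tnfsf8, Aqp9, Il2, Klra7, Ccl5 and S1pr1 are higher and Lef1, Id3, Ikzf2, Slamf6, Itm2a and Pdcd1 lower in cKO in both tissues, with Pdcd1 near 0 in thymus cKO alone.

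Genes of the NKT2 and NKT17 lists that passed were lower in cKO in both tissues, and more of them passed in the thymus. Of 12 NKT2 and maturation genes tested, 8 were lower and 0 higher in thymus cKO and 5 lower and 0 higher in liver cKO, with median changes of −1.36 and −0.32. Slamf6, Plac8, Itm2a and Folr4 were shared. Itm2a, a membrane protein induced during thymic selection, was at 16.5, 17.2 and 15.3 FPKM against 41.1, 39.0 and 50.8 in the thymus and at 39.9, 40.5 and 37.9 against 142, 132 and 131 in the liver. Zbtb16, Il4, Il17rb and Icos were lower in the thymus alone. Zbtb16, the gene of PLZF, was at 3.15, 3.84 and 4.27 FPKM in thymus cKO against 11.01, 12.2 and 13.5, and its liver values overlapped, at 9.58, 10.9 and 9.08 against 8.91, 12.01 and 13.4. The thymus change was −1.35 ± 0.11 (adjusted p = 0.000324), the liver change −0.08 ± 0.14 (0.694) and the difference 1.26 ± 0.18 (0.00122). Il4 was at 0.432, 0.969 and 0.617 FPKM against 4.44, 4.20 and 4.02 in the thymus and at 14.1, 14.6 and 8.74 against 20.1, 17.1 and 13.4 in the liver, with a difference of 1.24 ± 0.29 (adjusted p = 0.0143).

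Of 9 NKT17 genes tested, 8 were lower in thymus cKO and 3 in liver cKO, and none was higher in either, with median changes of −1.202 and −0.39. Blk, a Src family kinase, and Nrp1 were among the shared members. Blk fell more in the thymus, with a difference of 1.15 ± 0.24 (adjusted p = 0.00851). Il23r and Maf were lower in the thymus alone.

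The NKT1 and type 1 effector list showed no shared direction: of 17 tested, 2 were higher and 4 lower in thymus cKO and 3 higher and 6 lower in liver cKO. Ccl5 was the single shared gene. Ifng, interferon gamma, was at 41.0, 71.8 and 63.2 FPKM against 18.7, 24.3 and 11.5 in the thymus and at 34.0, 31.1 and 32.9 against 59.6, 56.4 and 57.8 in the liver. The groups did not overlap, and Ifng rose by 1.81 ± 0.30 in the thymus and fell by 0.70 ± 0.09 in the liver (adjusted p = 0.0093 and 0.00206), calls that were kept without any 1 library. Il2rb, the IL-2 and IL-15 receptor beta chain, did the reverse, −0.30 ± 0.07 and 0.52 ± 0.08, but its thymus call (adjusted p = 0.0407) was lost without any 1 thymus library other than cKO replicate 1, and with the length trend removed. Tbx21 (T-bet) did not pass, with changes of −0.02 ± 0.09 and −0.15 ± 0.12, nor did Gata3, with −0.13 ± 0.06 and 0.00 ± 0.09.

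The Gimap genes, GTPases that support lymphocyte survival, lie side by side on 1 chromosome. Of 8 tested, 5 were lower in thymus cKO and 5 in liver cKO, and Gimap4, Gimap5, Gimap6 and Gimap9 were shared, with list medians of −0.41 and −0.58. Gimap6 was at 109, 69.7 and 81.8 FPKM against 138, 133 and 159 in the thymus and at 203, 209 and 201 against 403, 387 and 373 in the liver. Thymus cKO replicate 1 lay closest to YFP+, and the thymus calls of Gimap4, Gimap6 and Gimap9 were lost without any 1 of the other 5 thymus libraries. Gimap5 kept its class in only 3 of the 12 fits that left out 1 library. Other neighbours that were shared in 1 direction were Apol7a, Apol9a and Apol7b, Ctla2a and Ctla2b, and Bcl2a1d and Bcl2a1a (lower), and Klri1 and Klri2 and S100a4 and S100a6 (higher). The copies in several of these runs are alike in sequence and may share reads. Apol7a kept its class in only 2 of the 12 fits. Around the loci altered in these mice, none of 35 tested neighbours of Rag2 and none of 39 tested neighbours of the Rosa26 locus was shared, among 100 annotated genes on either side, beside 2.35% of all genes.

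The Ly49 receptors, NK cell receptors for MHC class I encoded by the Klra genes, rose in the thymus and split in the liver. Of 15 tested, 12 were higher and 0 lower in thymus cKO, and 6 were higher and 4 lower in liver cKO, with medians of 1.33 and −0.23. Klra4, Klra7, Klra13-ps, Klra18 and Klra23 were shared higher. Klra7 was at 263, 251 and 225 FPKM against 29.1, 28.7 and 33.0 in the thymus and at 167, 171 and 167 against 123, 109 and 104 in the liver. It had the smallest p of any gene for the difference, with 3.13 ± 0.07 in the thymus, 0.69 ± 0.10 in the liver and a difference of −2.44 ± 0.13 (adjusted p = 1.75e-06). Klra23 was at 696, 635 and 516 FPKM against 87.8, 77.1 and 100.2 in the thymus and at 708, 773 and 729 against 378, 372 and 390 in the liver. Klra12, outside the fixed list, changed by 2.69 ± 0.13 and 1.08 ± 0.08.

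Klra9, Klra10 and Klra21 were opposed, and Klra21 lost its liver call in 1 fit of all 12 libraries and without liver cKO replicate 1, 2 or 3 or YFP+ replicate 2. Klra9 was at 378, 311 and 284 FPKM against 203, 214 and 252 in the thymus and at 492, 518 and 496 against 993, 921 and 845 in the liver. Klra10 was at 69.8, 64.6 and 57.7 FPKM against 24.4, 22.9 and 31.7 in the thymus and at 115, 125 and 111 against 227, 206 and 195 in the liver, a difference of −2.14 ± 0.16 (adjusted p = 1.97e-05). Klra5 was higher in liver cKO alone, at 206, 212 and 208 FPKM against 120, 118 and 118, and in the thymus it did not pass, at 73.5, 67.3 and 58.2 against 78.1, 82.0 and 82.4 (−0.13 ± 0.08, adjusted p = 0.377). Klra8, Klra22, Klra6 and Klra19 rose in the thymus alone and Klra3 fell in the liver alone. These genes are near-identical copies whose reads Cufflinks divides by a model, so the split between members is uncertain. Klra13-ps and Klra23 had the same tissue difference of −1.88 (adjusted p = 2.42e-05 in limma). The counts of Ly49 members above are therefore not counts of separate observations. Among 18 lectin-like and activating NK receptor genes tested, Klri1, Klri2, Klre1 and Klrk1 were shared higher and Klrd1 and Cd160 shared lower. Klri2 was at 44.6, 36.1 and 50.4 FPKM against 8.97, 11.9 and 11.1 in the thymus and at 68.1, 74.9 and 67.9 against 36.7, 36.6 and 36.8 in the liver.

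Opposite changes were led by immediate early genes, which are transcribed within minutes of a stimulus and need no new protein for it. Fos was at 36.0, 70.7 and 69.7 FPKM in thymus cKO against 18.1, 22.5 and 6.46 in thymus YFP+, and at 17.1, 16.9 and 15.1 in liver cKO against 79.4, 67.0 and 74.4 in liver YFP+. Fosb was at 3.72, 13.7 and 12.6 FPKM against 0.817, 1.11 and 0.428 in the thymus and at 3.47, 4.82 and 3.99 against 12.4, 18.0 and 14.9 in the liver. In both genes thymus cKO exceeded YFP+ and liver cKO lay below it, with no overlap, as the naming rule required. Thymus cKO replicate 1 was the lowest of its group in both. Fos changed by 2.08 ± 0.45 (adjusted p = 0.0274) and −1.995 ± 0.11 (3.15e-05), and Fosb by 2.57 ± 0.41 (0.00841) and −1.56 ± 0.14 (0.000462). The thymus call of Fos was lost without cKO replicate 2 or 3 or YFP+ replicate 1 and that of Fosb without YFP+ replicate 3.

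Klf4, a zinc finger factor that restrains T cell division, was at 2.92, 5.34 and 5.29 FPKM against 0.799, 1.60 and 0.523 in the thymus and at 6.24, 4.41 and 5.94 against 15.4, 18.1 and 14.1 in the liver. Its 2 calls, 1.58 ± 0.25 and −1.27 ± 0.15, were kept without any 1 library. Of 10 AP-1, Egr and Nr4a genes tested, 4 were higher and 1 lower in thymus cKO and 0 higher and 5 lower in liver cKO, with medians of 1.12 and −1.30. Jun was at 28.7, 80.5 and 79.3 FPKM against 20.95, 27.1 and 12.002 in the thymus, where it missed the threshold (1.68 ± 0.43, adjusted p = 0.0527), and at 1.86, 1.61 and 1.89 against 7.17, 9.53 and 9.46 in the liver (−1.71 ± 0.13). Nr4a1 and Atf3 had the same pattern, with thymus cKO replicate 1 near the YFP+ level. Without that library 7 of the 10 were higher in thymus cKO and 5 were opposed. Egr1 did not pass, with 0.01 ± 0.17 and 0.02 ± 0.17, and Batf did not pass either.

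Regulators of mRNA decay and signal feedback followed. Of 23 tested, 13 were higher and 1 lower in thymus cKO and 0 higher and 11 lower in liver cKO, with medians of 0.75 and −0.46. Ppp1r15a, the stress-induced phosphatase subunit GADD34, was at 41.8, 55.2 and 55.1 FPKM against 24.3, 30.6 and 16.3 in the thymus and at 37.5, 36.4 and 33.8 against 82.1, 131 and 124 in the liver. Nfkbia, the NF-kappaB inhibitor, was at 104, 162 and 162 FPKM against 84.7, 92.2 and 85.7 in the thymus and at 108, 114 and 109 against 189, 262 and 259 in the liver. Gadd45b and Klf6 were opposed as well, and Klf6 kept its class in 7 of 12 fits that left out 1 library. The thymus call of Ppp1r15a was lost without cKO replicate 2 or 3 or YFP+ replicate 1, and those of Nfkbia and Gadd45b without any 1 thymus library other than cKO replicate 1. Dusp1, a phosphatase of MAP kinases, was at 270, 620 and 639 FPKM against 288, 350 and 200 in the thymus, where the groups overlapped, and at 32.4, 28.8 and 29.2 against 139, 133 and 118 in the liver (−1.96 ± 0.11). Rgs1, which damps chemokine receptor signals, changed by −2.24 ± 0.10 in the liver, and its thymus change of −0.50 ± 0.18 did not pass (adjusted p = 0.153).

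Cd69, which holds S1P1 inside the cell and so retains T cells in tissue, was at 46.3, 63.6 and 68.3 FPKM against 40.7, 41.9 and 39.0 in the thymus and at 66.9, 55.4 and 57.3 against 129, 129 and 114 in the liver. It changed by 0.67 ± 0.15 and −0.93 ± 0.11, with the thymus call lost without any 1 thymus library other than cKO replicate 1. Rhob, a small GTPase, and Gramd3 had the same directions. Rhob kept its class in 5 of 12 fits that left out 1 library. Gramd3 was at 49.1, 42.3 and 45.3 FPKM against 23.5, 22.9 and 22.1 in the thymus and at 27.2, 29.5 and 29.9 against 40.6, 39.2 and 42.4 in the liver. Its liver call (−0.37 ± 0.09, adjusted p = 0.0219) was lost on the TPM scale and without any 1 liver cKO library. The tubulin genes Tuba1a, Tuba1b and Tuba1c, near-identical neighbours, were opposed together, with Tuba1a at 0.51 ± 0.07 and −0.53 ± 0.08. Ly6c1 and Ly6c2, another pair of alike neighbours, changed by 0.96 ± 0.20 and 1.003 ± 0.20 in the thymus and by −0.42 ± 0.11 and −0.40 ± 0.11 in the liver. They kept their class in 4 and 5 of 12 fits that left out 1 library.

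In the other direction, lower in thymus cKO and higher in liver cKO, changes were smaller. Xkrx, of the XK family of membrane proteins, was at 0.621, 0.326 and 0.400 FPKM against 2.84, 2.92 and 3.84 in the thymus and at 43.7, 41.7 and 43.3 against 24.4, 21.1 and 30.9 in the liver. Ptprv, a receptor-type phosphatase, was at 3.84, 3.02 and 3.79 FPKM against 6.90, 6.60 and 7.14 in the thymus and at 5.85, 7.05 and 5.69 against 1.40, 2.04 and 1.92 in the liver. Jag1, a Notch ligand, was at 3.23, 2.24 and 3.57 FPKM against 8.39, 6.49 and 9.16 in the thymus and at 3.82, 4.20 and 4.66 against 2.33, 2.88 and 2.29 in the liver. All 3 kept both calls without any 1 library, with changes of −1.45 ± 0.12 and 0.86 ± 0.13 for Xkrx, −0.67 ± 0.09 and 1.45 ± 0.13 for Ptprv and −1.04 ± 0.15 and 0.66 ± 0.13 for Jag1. Itgae, the integrin CD103 that binds epithelial E-cadherin, was at 30.9, 34.4 and 31.3 FPKM against 50.2, 48.7 and 51.4 in the thymus and at 42.1, 45.3 and 45.1 against 22.96, 23.6 and 29.9 in the liver, and changed by −0.47 ± 0.07 and 0.89 ± 0.11. Nr1d1, a clock gene repressor, Gpr55, a lysolipid receptor, Soat1, a cholesterol esterifying enzyme, Fam129a and Gm962 were in the same class. The calls of Nr1d1, Gpr55, Soat1 and Fam129a were each lost without 1 of several libraries.

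**Figure D4:**
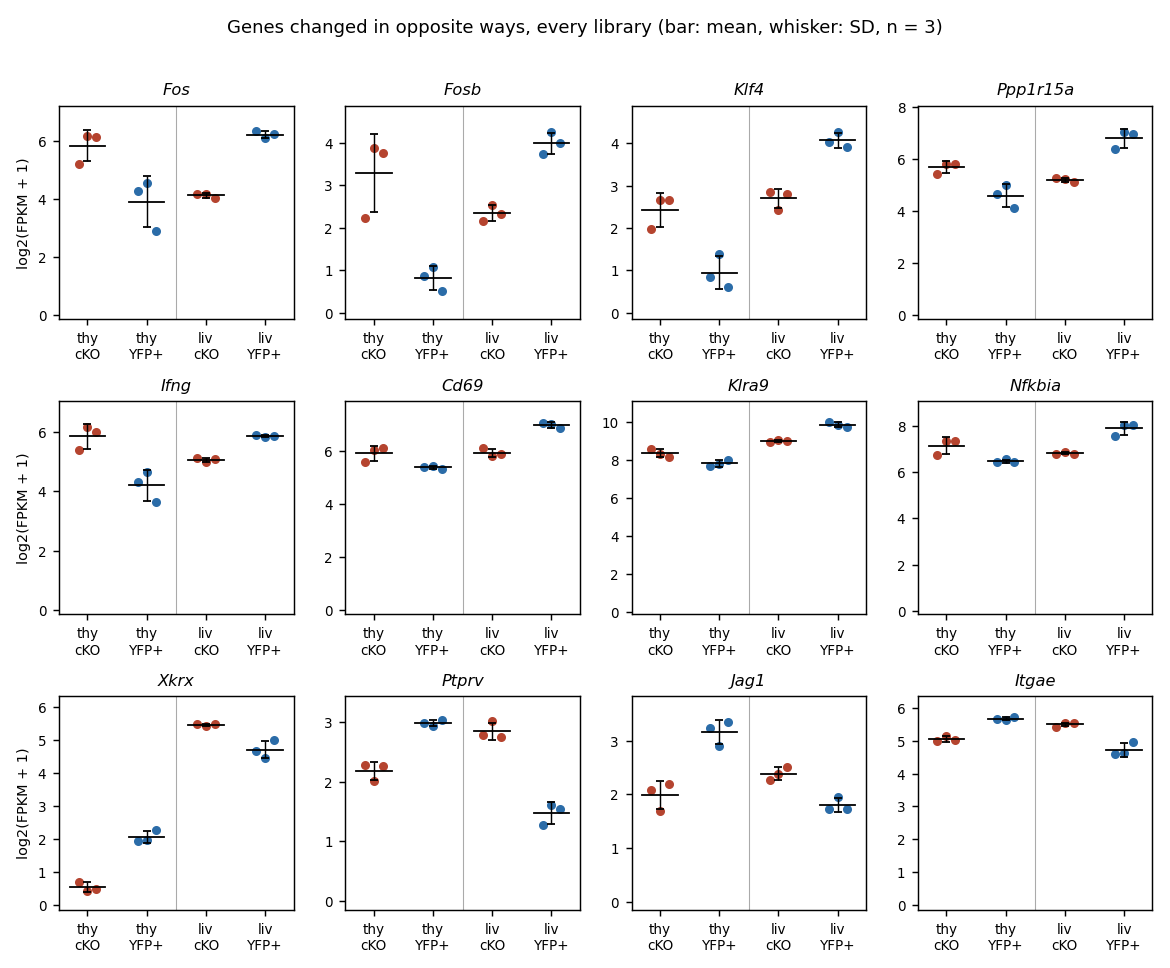
Levels of 12 opposed genes in every library, as log2(FPKM + 1) of the values as deposited (vertical axis) for the 4 groups (horizontal axis). Points are libraries, bars are means and whiskers SD over 3 libraries. Fos, Fosb, Klf4, Ppp1r15a, Ifng, Cd69, Klra9 and Nfkbia are higher in thymus cKO and lower in liver cKO, and Xkrx, Ptprv, Jag1 and Itgae the reverse.

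Genes changed in the thymus alone were led by the inducible HSP70 pair, chaperones made on heat and protein damage. Hspa1b was at 108, 857 and 935 FPKM in thymus cKO against 7.12, 7.22 and 6.00 in YFP+, and at 1.29, 1.42 and 0.871 in liver cKO against 0.869, 1.14 and 0.968. Hspa1a was at 90.7, 743 and 751 FPKM against 6.05, 6.18 and 4.79 in the thymus and at 1.29, 1.56 and 1.02 against 0.684, 1.51 and 1.16 in the liver. All thymus cKO libraries were above YFP+, as the naming rule required, replicate 1 by the least, and the liver groups overlapped. The thymus changes were 5.99 ± 0.73 (adjusted p = 0.00243) and 5.95 ± 0.73 (0.00252), and the differences −5.79 ± 0.84 and −5.76 ± 0.85.

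The 250 bases before the start of the 2 genes show how alike the copies are, and are given from RefSeq for GRCm38.p6, with the heat shock core (GAANNTTC, a palindrome that reads alike on both strands) in capitals.

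Hspa1a, chr17:34972157-34972406, minus strand: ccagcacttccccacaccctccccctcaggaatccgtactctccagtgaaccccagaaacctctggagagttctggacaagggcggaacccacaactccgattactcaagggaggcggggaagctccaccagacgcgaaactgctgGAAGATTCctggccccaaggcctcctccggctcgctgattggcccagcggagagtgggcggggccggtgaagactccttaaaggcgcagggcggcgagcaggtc

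Hspa1b, chr17:34959239-34959488, minus strand: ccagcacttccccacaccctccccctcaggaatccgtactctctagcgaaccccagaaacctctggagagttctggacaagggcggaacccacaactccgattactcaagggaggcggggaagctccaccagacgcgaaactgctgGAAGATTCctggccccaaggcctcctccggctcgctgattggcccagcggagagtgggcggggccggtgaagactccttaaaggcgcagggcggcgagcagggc

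They differ at 3 of 250 bases, and reads of such copies are divided by a model, so the 2 genes count as 1 observation. The core was present in 6.78% of all 27025 promoter windows given, in 5.12% of the 6580 of tested genes and in 6 of 68 (8.82%) of genes higher in thymus cKO alone. Both Hspa1a and Hspa1b are among these 6, so that share counts the pair more than once.

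Of 15 heat shock genes tested, 5 were higher and 0 lower in thymus cKO and 3 higher and 2 lower in liver cKO. Dnajb1, the HSP40 partner of HSP70, was opposed, at 29.6, 88.0 and 89.3 FPKM against 21.7, 20.3 and 21.004 in the thymus and at 25.0, 25.5 and 22.2 against 42.5, 56.7 and 53.8 in the liver. Hsp90aa1, the inducible HSP90, was at 41.5, 82.2 and 75.3 FPKM against 33.4, 35.3 and 31.1 in the thymus and at 73.9, 73.2 and 70.9 against 93.6, 88.3 and 87.0 in the liver. In each of these thymus cKO replicate 1 was nearest to YFP+, and without that library 14 of the 15 genes were higher in thymus cKO. The thymus calls of Dnajb1 and Hsp90aa1 were lost without any 1 of the other 5 thymus libraries.

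Klf2, the factor that turns on S1pr1, was at 139, 132 and 127 FPKM in thymus cKO against 66.0, 69.4 and 53.9, and overlapped in the liver, at 9.77, 9.82 and 11.5 against 9.04, 10.7 and 11.5. It rose by 1.22 ± 0.11 in the thymus (adjusted p = 0.000482), with 0.10 ± 0.11 in the liver and a difference of −1.12 ± 0.16 (0.00104). Its target S1pr1 passed in both tissues (above), more in the thymus (difference −0.77 ± 0.18, adjusted p = 0.0139). Anxa1, a phospholipid-binding protein, rose by 0.92 ± 0.14 in the thymus alone, a class it lost with values as deposited. Junb, Zfp36 and Dusp5, further immediate early genes, were called in the thymus alone and lost the class without any 1 of several libraries.

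Lower in thymus cKO alone were Atp8a2, Ahr, Il17rb, Litaf and others. Ahr, the aryl hydrocarbon receptor, was at 0.700, 1.08 and 1.54 FPKM against 12.04, 10.6 and 12.3 in the thymus and at 0.787, 0.736 and 0.855 against 1.32, 1.84 and 1.40 in the liver. It fell by 2.49 ± 0.15 in the thymus, and its liver change of −0.43 ± 0.13 just missed the threshold (adjusted p = 0.0519) and passed it with values as deposited, in 1 fit of all 12 libraries and with the length trend removed. Atp8a2, a lipid-flipping ATPase, was at 0.613, 0.869 and 0.566 FPKM against 8.92, 7.81 and 9.71 in the thymus and at 2.46, 1.63 and 1.99 against 2.47, 2.79 and 2.27 in the liver. Il17rb, the IL-25 receptor, was at 1.85, 0.845 and 1.31 FPKM against 8.14, 8.55 and 9.34 in the thymus and overlapped in the liver, at 1.68, 2.52 and 2.77 against 2.69, 4.03 and 3.53. Litaf was at 13.9, 9.81 and 13.5 FPKM against 46.2, 46.1 and 49.7 in the thymus, with a difference of 1.53 ± 0.14 (adjusted p = 6.77e-05). Atp8a2, Il17rb and D14Ertd449e kept their class in all 12 fits that left out 1 library.

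Genes changed in the liver alone included markers of other cells and cell division genes. Sox13, a factor of gamma-delta T cells that make IL-17, was at 7.29, 7.53 and 9.56 FPKM in liver cKO against 0.497, 0.867 and 1.02, and overlapped in the thymus, at 0.535, 1.46 and 0.970 against 1.29, 1.29 and 1.06. Cd163l1 and 5830411N06Rik, scavenger receptors of gamma-delta T cells, were at 7.38, 10.5 and 7.37 against 1.47, 2.004 and 2.45 FPKM and at 4.93, 4.84 and 5.19 against 1.10, 1.45 and 1.85 in the liver. All 3 gamma-delta markers tested were higher in liver cKO and none was called in the thymus. There Cd163l1 was at 3.63 to 5.91 FPKM in cKO and 3.59 to 6.62 in YFP+, and 5830411N06Rik at 5.05 to 7.42 and 4.67 to 5.61. In the values as deposited liver YFP+ was the lowest of the 4 groups for both genes, though each table was normalized on its own. Rln3, relaxin 3, was at 23.9, 16.1 and 24.0 FPKM in liver cKO against 3.70, 4.21 and 4.11. It rose by 2.23 ± 0.16 in the liver, and its thymus change of 0.44 ± 0.15 did not pass (adjusted p = 0.115). Itgal and Itgb2, the 2 chains of the integrin LFA-1, were higher in liver cKO, by 0.77 ± 0.14 and 0.61 ± 0.08, and Ccr2, a chemokine receptor, by 1.04 ± 0.09.

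The largest liver-only decreases were the globins. Hbb-b2 was at 3.86, 2.03 and 3.36 FPKM in liver cKO against 203, 201 and 177, and in the thymus at 41.4, 0.034 and 5.59 against 0.031, 0.326 and 0.072. Beta-s, Hbb-b1, Hba-a1 and Hba-a2 had the same pattern, with the high thymus value in cKO replicate 1. Of 19 cell cycle genes tested, 2 were lower in thymus cKO and 13 in liver cKO, and none was higher in either. Ube2c, a ubiquitin enzyme of mitosis, was at 3.07, 3.26 and 2.02 FPKM in liver cKO against 12.5, 19.5 and 19.4, and at 0.989, 1.30 and 0.573 against 0.813, 1.33 and 1.65 in the thymus. Ccnb2, a mitotic cyclin, was at 2.85, 3.13 and 3.98 FPKM against 14.0, 13.5 and 12.9 in the liver and at 1.68, 1.99 and 1.86 against 1.87, 2.996 and 3.67 in the thymus. Ube2c, Ccnb2, Pcna, Rrm2, Stmn1, H2afz and Hmgb2 made up the 7 that were lower in the liver alone. In bulk RNA fewer cells of a type and less RNA per cell cannot be told apart, and DP thymocyte and B cell markers were higher in the same liver YFP+ libraries.

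Direction in the liver went with transcript length. The longest annotated transcript (GENCODE M21) had a median of 4288 bases for genes higher in liver cKO alone and 2002 for genes lower there alone, beside 3084 for all tested genes, with a length for 98.7% of them. The medians were 3089 for shared higher, 2188 for shared lower, 2197 for opposed genes higher in thymus cKO and 3760 for those lower there. With the length trend of each library removed, 208 genes were shared (164 of them among the 197), 49 opposed (42 among the 60), 177 thymus-only and 536 liver-only.

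Other lists had few or no genes changed in both tissues. Over all genes tested 8.71% changed in the thymus and 19.1% in the liver. The liver counts of the interferon, oxidative phosphorylation and glycolysis lists lay near that liver share. None of 50 ribosomal protein genes passed in either tissue in limma (3 in the thymus and 6 in the liver at an unadjusted p under 0.05), and with values as deposited 11 were lower in thymus cKO and 15 in liver cKO. Of 24 interferon-stimulated genes 0 passed in the thymus (0 at an unadjusted p under 0.05, but 8 lower with adjustment when cKO replicate 1 was left out). In the liver 3 were higher and 1 lower (9 at an unadjusted p under 0.05). Of 39 oxidative phosphorylation genes 1 was lower in the thymus and 7 in the liver, 0 of them shared. In the liver 0 were higher, and 24 of the 39 had an unadjusted p under 0.05. Their liver median was −0.30 beside −0.02 for all genes, of which 10.1% were lower in liver cKO. Of 17 CD3 and proximal T cell receptor signalling genes 4 were lower in the thymus and 2 higher and 2 lower in the liver, with Sh2d1a and Txk shared. Sh2d1a kept its class in all 12 fits that left out 1 library and Txk in 2 of 12, and Txk also lost it on the TPM scale and with no filter. Of 15 glycolysis genes 2 were higher and 2 lower in the thymus and 1 higher and 2 lower in the liver. Ldhb, the lactate dehydrogenase chain of aerobic tissue, was shared lower, at 1.08, 1.199 and 1.198 FPKM against 4.36, 4.38 and 4.73 in the thymus and at 8.57, 6.50 and 4.99 against 30.5, 23.9 and 24.5 in the liver. Of 14 MHC class I presentation genes 0 passed in the thymus (0 at an unadjusted p under 0.05). In the liver 1 was higher and 3 lower (7 at an unadjusted p under 0.05).

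**Figure D5:**
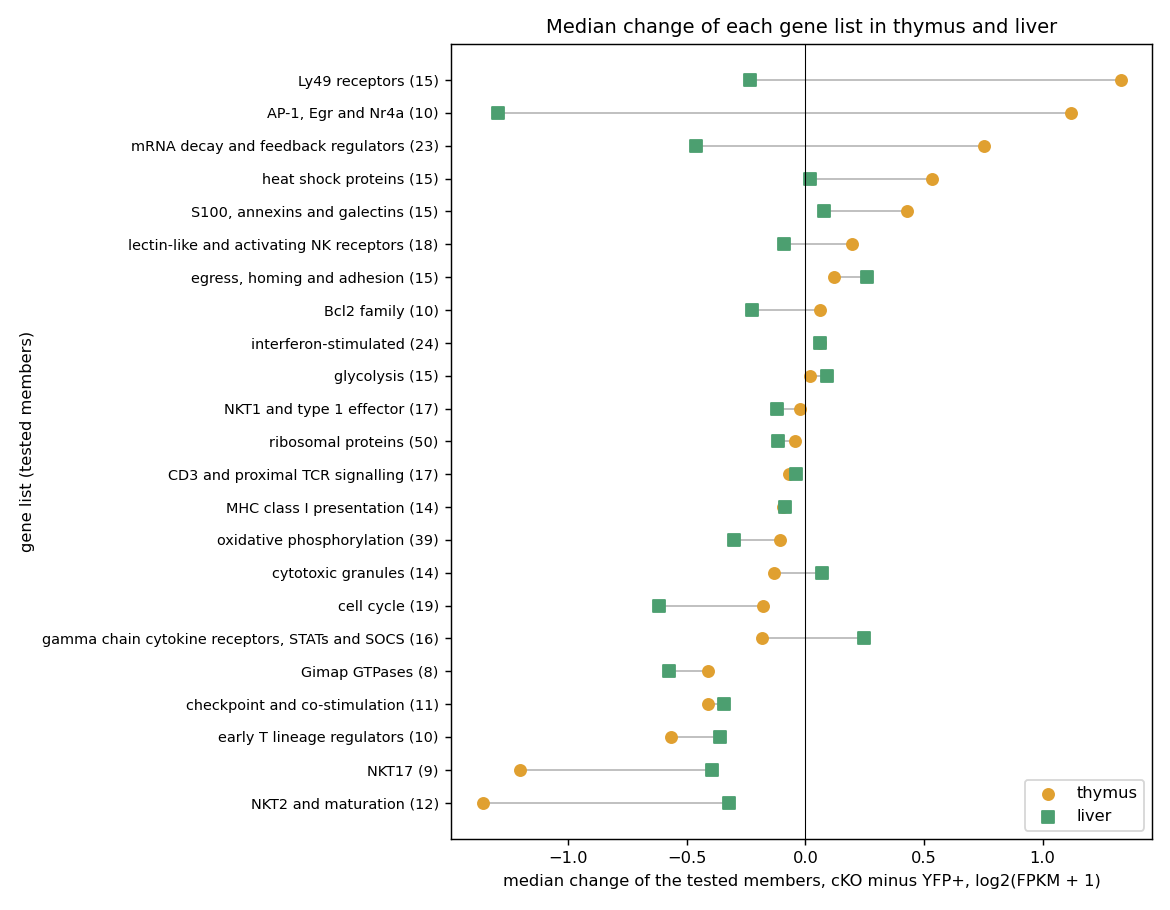
Median change of the tested members of 23 gene lists (vertical axis, number tested in parentheses) in the thymus (circles) and the liver (squares), as cKO minus YFP+ on log2(FPKM + 1) (horizontal axis). The NKT2 and NKT17 lists lie below 0 in both tissues, and the AP-1 and Ly49 lists above 0 in the thymus and below 0 in the liver. Under other scalings 4 thymus medians and 10 liver medians, none larger than 0.122 in size, changed sign.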

How the data were processed

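The authors deposited 2 tables of FPKM values, 1 for thymus and 1 for liver, with 6 libraries each and 23284 genes. Per the submitters' processing notes the tools were TopHat2 2.8.0 and Cufflinks 2.1.1 with the mm9 genome. The notes give no read numbers, so depth is unknown, and each table was normalized on its own. Of the 23284 genes, 4033 to 4370 were listed at 0 in thymus cKO libraries and 4571 to 5740 in thymus YFP+. In the liver these numbers were 6702 to 6841 in cKO and 8800 to 8869 in YFP+. Here libraries were scaled by median ratios within each table, and log2(FPKM + 1) was fitted with limma 3.58.1 in R 4.3.3 (trended variance), per tissue and, for the tissue difference, over all 12 libraries. P-values were adjusted by Benjamini-Hochberg over the 8372 genes that reached 1 FPKM on average in both tables, and the script was tested on simulated data. A fold on this scale understates the change of low genes. An exact permutation test of 3 against 3 libraries cannot go below 0.1. Named genes were those with the largest smaller change among shared (10 per direction) and opposed genes (8), and the largest tissue difference among 1-tissue genes (6). These were taken only from genes whose cKO and YFP+ values did not overlap in either tissue. For 1-tissue genes this held for the tissue of the call. Further named genes were the 5 smallest p of the difference, up to 3 per list and class, and a few fixed genes. Members and lists were chosen with earlier results of these data known. Promoters and symbols come from RefSeq (GRCm38.p6), transcript lengths from GENCODE M21. Alternatives were other scalings, pseudocounts and filters, 1 joint fit, a replicate block, mirrored liver labels, leaving out each library and, chosen after seeing the data, removal of the length trend. The values of 1 gene of the lists are not reported here.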

Additional observations from a re-analysis of the deposited data

Results flagged for a closer look

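For 53 of the genes picked by the naming rule, the change with origin itself differed between liver and thymus in the limma fit of all 12 libraries, with adjusted p-values from 1.75e-06 to 0.0368. Values are the liver change minus the thymus change on log2(FPKM + 1), with 3 libraries in each of the 4 groups. Genes of the 1-tissue classes pass this test by definition. Those listed were picked for the largest differences, so their sizes were selected too. Opposed genes are not defined by this test, but calls of opposite sign make a pass likely, and all 60 passed it. Most of those listed were picked for large changes in both tissues, which makes their differences large. A low p in this same test was a further ground for naming 5 genes. Among genes higher in cKO in both tissues, the difference was −2.44 for Klra7, −1.88 for Klra13-ps, −1.88 for Klra23, −1.61 for Klra12, −1.05 for Klri2 and −0.81 for Aqp9. Among genes lower in both tissues it was 3.30 for Pdcd1, −2.58 for Plac8, 1.82 for Nrgn, −1.51 for Mir1904 and 0.68 for Trf. Among opposed genes higher in thymus cKO it was −4.13 for Fosb, −4.08 for Fos, −2.86 for Klf4, −2.73 for Ppp1r15a, −2.59 for Dnajb1, −2.26 for Gadd45b, −2.14 for Klra10, −1.80 for Nfkbia, −1.69 for Rhob and −1.49 for Gramd3. Among opposed genes lower in thymus cKO the values were 2.30 for Xkrx, 2.12 for Ptprv, 1.76 for Gpr55, 1.70 for Jag1, 1.42 for Nr1d1, 1.40 for Fam129a, 1.29 for Gm962 and 1.20 for Soat1. Among genes higher in the thymus alone the differences were −5.79 for Hspa1b, −5.76 for Hspa1a, −2.01 for Klra8, −1.94 for Junb, −1.86 for Klra22 and −1.76 for Klra15. Among genes lower in the thymus alone they were 2.29 for Atp8a2, 2.06 for Ahr, 1.63 for Il17rb, 1.54 for Ddit4, 1.53 for Litaf and 1.50 for D14Ertd449e. For genes higher in the liver alone they were 2.52 for Sox13, 1.79 for Rln3, 1.77 for Mir1966, 1.63 for Cd163l1, 1.54 for Podnl1 and 1.40 for 2900026A02Rik. For genes lower in the liver alone they were −8.12 for Beta-s, −8.08 for Hbb-b2, −8.07 for Hbb-b1, −6.83 for Hba-a1, −6.82 for Hba-a2 and −3.96 for Atf3. The tissue, the table and the sex-linked RNA of the mice differ together between the arms, and their part in these differences cannot be told apart. Sex-linked RNA also differed between cKO and YFP+ within the liver. Mir1966 lies within Ripor1, whose reads cannot be told apart from its own, and it kept its class in 4 of 12 fits that left out 1 library and Podnl1 in 8 of 12. Copies of the globin, Klra and Hspa1 genes share reads and are not separate observations.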

How the results depend on the processing

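With the liver labels mirrored, 60 genes were shared, 197 opposed and 283 thymus-only, the tissue difference had 1823 calls and 10 of 60 named genes kept their class. With values as deposited there were 1401 thymus calls (210 higher, 1191 lower), 394 shared genes (59 higher, 335 lower) and 96 opposed. The balance of higher and lower calls turned with the scaling: the liver, with 750 higher and 846 lower, had 981 and 562 on the TPM scale, where the thymus had 245 and 605. With at least 5 FPKM there were 459 thymus calls, 118 thymus-only genes and 30 named genes that kept their class, and with no filter 34 opposed genes. Taking the larger p of both tissues and adjusting it over all genes left 67 shared and 11 opposed. Leaving out 1 library gave 314 to 1260 thymus calls, 804 to 1868 liver calls, 719 to 1413 tissue differences, 114 to 291 shared, 22 to 124 opposed, 82 to 302 thymus-only and 355 to 857 liver-only genes. The highest thymus, shared, opposed and thymus-only counts came without thymus cKO replicate 1 and the lowest without thymus YFP+ replicate 3, and the lowest liver count came without liver cKO replicate 2. Leaving out any thymus library moved the thymus count by over 1.5 times, and leaving out liver cKO replicate 1, 2 or 3 or YFP+ replicate 2 did so for the liver count; the cause was not tested. Same-numbered libraries share only a number, with correlations of deviations from −0.0789 to 0.0758, and the replicate block gave 496 thymus calls, 1298 liver calls, 807 differences, 148 shared, 42 opposed, 124 thymus-only and 470 liver-only genes. The block also ended calls of Tcf7, Il2rb, Gadd45b, Xdh, Gramd3 and Txk. With the length trend removed, the balance turned as well, to 410 higher and 335 lower in the thymus, 704 and 631 in the liver and 468 and 491 for the tissue difference (651 and 518 before). Unknown depth limits what can be said of genes listed at 0, which were more numerous in YFP+ than in cKO libraries of each tissue.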
